A study of Homo sapiens with 4 samples.

Results

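Stop codon peaks are m6A peaks that the authors' annotation assigned to a stop codon, where the coding part of an mRNA ends and its 3′ UTR begins. They were taken as the distinct peaks carrying that annotation in each of the 2 deposited peak lists, with chromosome, start, end and strand defining a peak. The control list (NC) held 781 of them among 22067 peaks, a share of 3.54% with an exact Clopper-Pearson 95% interval of 3.30 to 3.79%. The list from treated cells (MA) held 689 among 19929, or 3.46% (3.21 to 3.72%). The intervals of the shares overlap, and every interval here covers counting error only. Together the peaks lay in 977 genes, 743 in the NC list and 660 in the MA list, all protein-coding and all on the strand of the peak. Of 41996 peaks in both lists, 1470 were stop codon peaks.

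The cells were OMM 2.3, a human uveal melanoma line of wild-type genotype per the labels, that had been kept for 24 h with either meclofenamic acid (MA) or DMSO (NC). Meclofenamic acid belongs to the nonsteroidal anti-inflammatory drugs and also inhibits FTO, an m6A demethylase. Its dose is not given in the sources used here. Each condition had 1 input library and 1 library of RNA fragments bound by an antibody to m6A (RIP), 4 libraries in all from 1 cell line, so no value has a replicate check and no p-value of a difference was computed.

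N6-methyladenosine (m6A) is a methyl mark placed on adenosines of mRNA by a nuclear complex around METTL3 and METTL14, in a short sequence context. It is known to gather around stop codons, at the start of 3′ UTRs and in long internal exons, and it is sparse near exon junctions, where the exon junction complex keeps the writers away. Reader proteins of the YTH family bind the mark and recruit, among others, the CCR4-NOT deadenylase, which shortens the poly(A) tail. FTO and ALKBH5 remove the mark. The stop codon is also where ribosomes terminate, and where the factors of nonsense-mediated decay judge whether termination is normal.

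The input totals behind the authors' FPKM values (fragments per kilobase of gene, scaled to library size) were recovered as 37041597 for NC and 41630895 for MA. Of 14416 genes listed, 10564 reached 1 FPKM in at least 1 input. The input difference of a gene was expressed as log2((MA FPKM + 1)/(NC FPKM + 1)), a scale that understates the differences of low genes, and their median over all tested genes was 0.11. All 7 melanocyte markers checked (PMEL, MLANA, TYR, TYRP1, DCT, MITF and SOX10) were at 1 FPKM or more in both inputs, with a summed level of 7307 FPKM in NC and 3172 in MA. No endothelial or epithelial marker reached 1 FPKM, and of the fibroblast and immune markers 1 each did, LUM and CD68. In such bulk RNA, fewer cells of a kind and less RNA per cell cannot be told apart.

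Within each list, stop codon peaks had the highest median fold enrichment and the longest median exonic length of the 5 annotations. The fold enrichment (RIP over input) is a value deposited by the authors and is compared only within a list. Its median was 4.11 for NC stop codon peaks, with quartiles of 2.97 and 5.67. Peaks in 3′ UTRs followed at 3.77, internal exons at 3.50, and start codons and 5′ UTRs at 3.33 each. In the MA list the median was 3.50 (quartiles 2.62 and 4.58), ahead of 3.21 in 3′ UTRs and 3.00 in each other annotation. The order of the annotations was thus the same at its top in both lists. Quartiles overlapped widely between annotations, so the ranking is one of medians.

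The exonic length of a peak leaves its introns out. It had a median of 399 bp for stop codon peaks in the NC list, against 299 bp over all its peaks, and of 400 bp in the MA list, against 300 bp. Peaks in 3′ UTRs came next, at 300 bp in NC and 347 bp in MA, so the lead was narrower in MA. A fold of 5 or more was reached by 275 stop codon peaks in the NC list (35.2%, against 29.7% of all its peaks) and by 143 in the MA list (20.8%, against 17.9%). Longer stop codon peaks had higher folds. The NC median fold was 3.00 under 250 bp, 4.00 from 250 to under 500 bp and 5.18 at 500 bp or more. The MA medians over the same lengths were 2.65, 3.50 and 4.25. At matched length the other peaks had somewhat lower medians, 2.80, 3.63 and 5.00 in NC and 2.50, 3.00 and 4.07 in MA. Among single-exon NC peaks of 500 bp or more the other peaks had the higher median, 5.33 against 5.25.

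**Figure D1:**
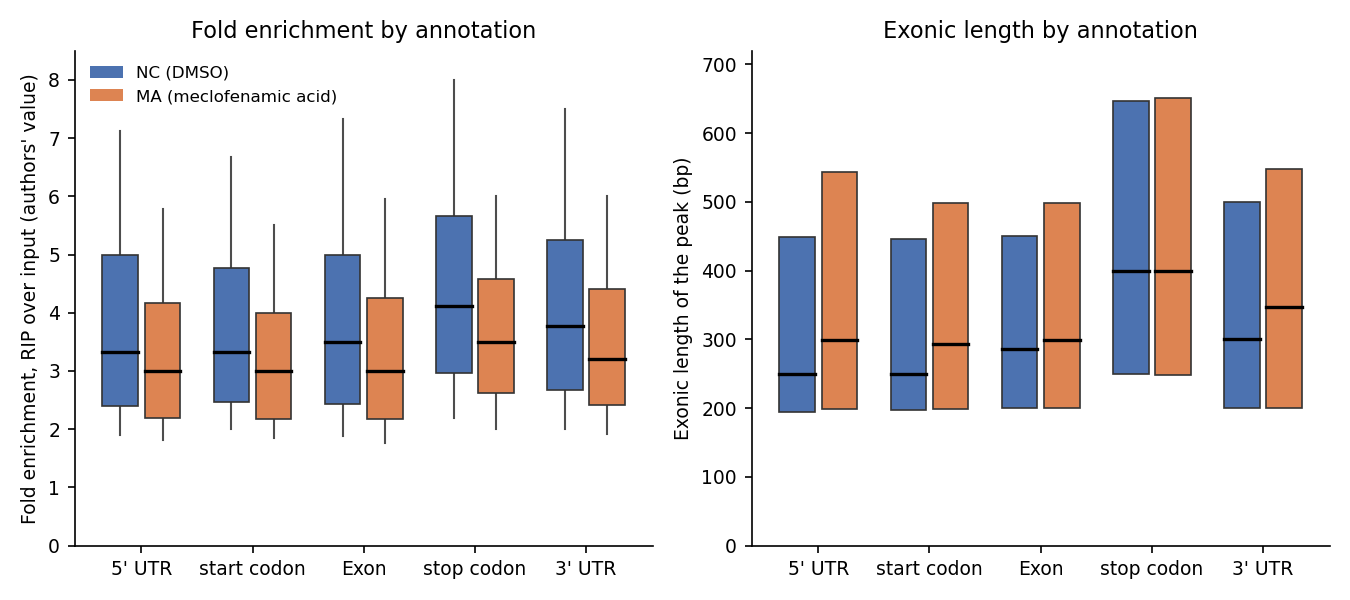
The left plot shows the authors' fold enrichment (RIP over input, linear axis) of peaks by annotation in the NC and the MA list, with boxes from the lower to the upper quartile, a line at the median and whiskers from the 10th to the 90th percentile. The right plot shows the exonic length in bp as quartile boxes with the median. Stop codon peaks have the highest median fold (4.11 in NC, 3.50 in MA) and the longest median length (399 and 400 bp) of the 5 annotations.

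Many stop codon peaks crossed introns. Of the 781 NC peaks, 411 extended over several exons and 370 lay in 1 exon, and of the 689 MA peaks 425 and 264 did. Peaks in 1 exon thus made up 47.4% of the NC stop codon peaks and 38.3% of the MA ones, against 59.8% and 55.9% of all peaks. Only 3′ UTR peaks stood above these all-peak shares, at 79.9% in NC and 75.4% in MA. Internal exon peaks were at 47.7% and 45.1%, 5′ UTR peaks at 44.4% and 38.4%, and start codon peaks at 30.6% and 25.9%. Crossing introns was thus not particular to stop codon peaks. Single-exon stop codon peaks were shorter, with medians of 349 bp in NC and 351 bp in MA, against 449 and 450 bp for those over several exons. Their median fold was 4.26 against 4.00 in NC and 3.67 against 3.48 in MA. Because of introns, a peak can span far more genome than it covers. The longest spans were 138880 bp in CHCHD3, a mitochondrial inner membrane organizer (900 bp of exon, NC), and 162857 bp in SGCD, a sarcoglycan (401 bp, MA).

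The exonic lengths of the stop codon peaks mostly sat on a grid. Within 5 bp, the exonic length was a multiple of 50 bp in 713 NC stop codon peaks (91.3%) and in 610 MA ones (88.5%), so a difference of a single 50 bp step between peaks is at the resolution of the lists. High folds were often whole numbers. A whole-number fold was listed for 17.2% of the NC stop codon peaks under 5, for 39.8% from 5 to under 10 and for 21 of the 29 at 10 or more. In the MA list the shares were 15.9% and 34.9%, and 13 of the 14 peaks at 10 or more had one. The median NC input level of their genes was 2.72 FPKM for NC peaks at 10 or more, against 10.6 FPKM under 5. In the MA list the median MA input levels were 6.05 FPKM at 10 or more, 6.57 from 5 to under 10 and 9.78 under 5, and the 14 highest included KCNAB2 at 46.8 FPKM and HYI at 32.4.

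The highest folds were 21 in the NC list, in SNX29, a sorting nexin at 0.825 FPKM in NC and 1.28 in MA, and 31 in the MA list, in CCDC186, at 0.529 and 2.81 FPKM. Among genes whose inputs both reached 5 FPKM, the NC peak with the highest fold and a partner in the MA list was in CNOT2, a scaffold subunit of the CCR4-NOT deadenylase (chr12:70354645-70354943, plus strand, 299 bp in 1 exon, on GRCh38.p13 per the submitters' processing notes). Its fold was 16.8, with a false discovery rate of 1.58e-11. RNF169, a ubiquitin ligase of the DNA damage response (chr11:74842115-74842413), followed with 15. MECR, a mitochondrial fatty acid synthesis enzyme (chr1:29193204-29193999), and TPGS2, a tubulin polyglutamylase subunit (chr18:36786572-36787071), had 12 each. ARID5A, an RNA-binding protein that stabilizes inflammatory mRNAs, had 11 over 1697 bp of exon (chr2:96550577-96552638). The single-exon CNOT2 and RNF169 peaks were short, at 299 bp each, so a high fold was not limited to long peaks.

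Among the corresponding peaks of the MA list, the one with the highest fold was in SPPL2B, an intramembrane protease (chr19:2341241-2343246, fold 19). The SPPL2B peak covered 1299 bp of exon. KCNAB2, a potassium channel beta subunit (chr1:6097329-6098903), had a fold of 15 and HYI, a putative isomerase (chr1:43450754-43451442), one of 12. TPST1, which sulfates tyrosines (chr7:66356828-66359649), had 11. These MA peaks each had a stop codon partner in the NC list, and the SPPL2B peak overlapped NC peaks of other annotations as well.

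The position of a gene's other peaks gives a partial check of the stop codon label. Other peaks of the same gene that did not overlap the stop codon peak were placed upstream or downstream of it along the transcript's strand. For the NC list, 260 of 266 peaks in 5′ UTRs (97.7%) and 136 of 138 at start codons (98.6%) lay upstream, and in the MA list 246 of 247 (99.6%) and 78 of 79 (98.7%) did. Those are the sides that the labels call for. A peak in an internal exon or a 3′ UTR would also have its gene's 5′ UTR and start codon peaks upstream, however. These pairs therefore cannot tell a stop codon peak from such a peak. Peaks in internal exons lay upstream in 479 of 613 NC pairs (78.1%) and 406 of 530 MA pairs (76.6%). They lay downstream, the side that the labels do not call for, in 134 NC pairs and 124 MA pairs. For 3′ UTR peaks the labels fitted less well. Only 392 of 641 NC pairs (61.2%) and 313 of 524 MA pairs (59.7%) had the 3′ UTR peak downstream, and 249 and 211 had it upstream. A 3′ UTR peak and a stop codon downstream of it cannot both belong to 1 annotated transcript, and which transcripts the annotation drew on is not given in the sources used here. Where the 3′ UTR peak lay downstream, the median genomic gap was 2132 bp in NC and 2486 bp in MA.

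**Figure D2:**
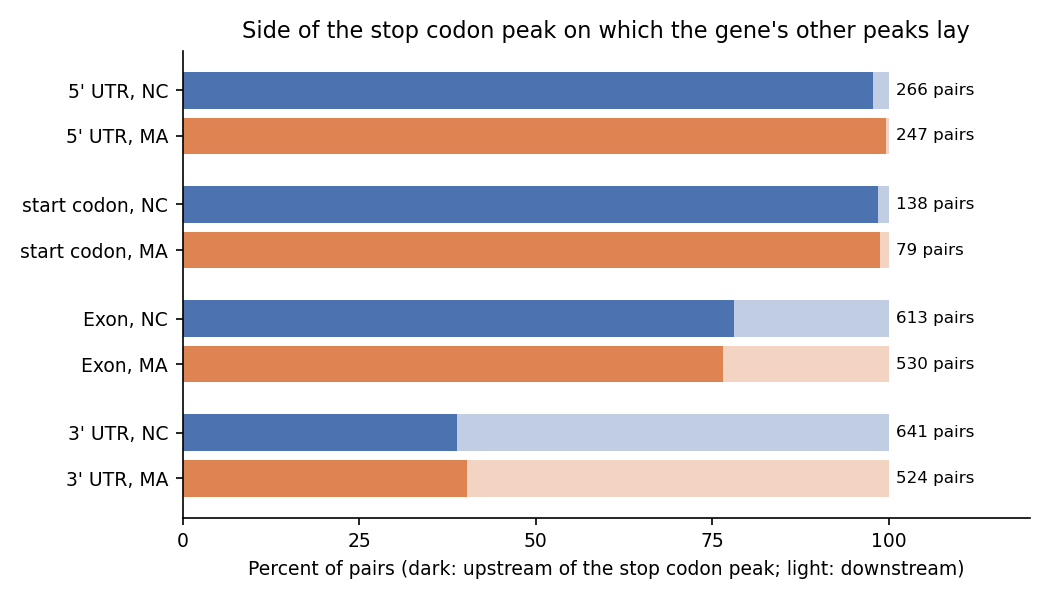
Bars give the percent of pairs of a stop codon peak and another, non-overlapping peak of the same gene and list in which the other peak lay upstream (dark) or downstream (light), by annotation and list, with the number of pairs at the right. Nearly all 5′ UTR and start codon peaks lay upstream (97.7% or more), and 61.2% (NC) and 59.7% (MA) of 3′ UTR peaks lay downstream.

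Most genes with a stop codon peak carried a peak elsewhere too. Of the 743 NC genes, 573 (77.1%, interval 73.9 to 80.1%) had a peak of another annotation and 170 had stop codon peaks alone. In the MA list 497 of 660 (75.3%, 71.8 to 78.5%) did and 163 had stop codon peaks alone. A 3′ UTR peak was the most frequent companion, in 346 NC genes (46.6%, 42.9 to 50.2%) and 298 MA genes (45.2%, 41.3 to 49.0%). That share was below the one for genes chosen by other annotations. Among genes with a start codon peak, 58.6% in NC (55.8 to 61.3%) and 55.8% in MA (52.5 to 59.1%) also had a 3′ UTR peak, and among genes with an internal exon peak 56.6% (55.1 to 58.0%) and 55.1% (53.6 to 56.7%) did. The intervals do not overlap in either list. Each peak carries 1 annotation, so a peak that runs from the stop codon into the 3′ UTR and is labelled stop codon is not counted as a 3′ UTR peak. How much of the lower share this accounts for was not tested.

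Internal exon peaks accompanied the stop codon peak in 296 NC genes (39.8%) and 267 MA genes (40.5%), against 45.9% and 44.8% of all genes with a peak. That base includes the genes chosen by internal exon peaks themselves. Among genes with a 5′ UTR, start codon or 3′ UTR peak, 38.9%, 39.2% and 38.6% had an internal exon peak in NC. In MA 39.2%, 41.1% and 36.6% did, so the stop codon share was close to these. The shares with 5′ UTR peaks, 212 genes (28.5%) in NC and 191 (28.9%) in MA, were near those of all genes with a peak (28.9% and 28.4%). So were those with start codon peaks, 108 (14.5%) and 71 (10.8%), against 13.4% and 10.0%. Genes chosen by other annotations had lower shares. Among genes with a start codon, internal exon or 3′ UTR peak, 23.3%, 24.5% and 24.2% had a 5′ UTR peak in NC. In MA 27.0%, 24.8% and 22.4% did. Among genes with a 5′ UTR, internal exon or 3′ UTR peak, 10.8%, 11.4% and 11.6% had a start codon peak in NC. In MA 9.55%, 9.20% and 8.29% did. DST, which encodes the cytoskeletal linker dystonin, had the most peaks of any gene with a stop codon peak, 25 in NC and 23 in MA. Its stop codon peak began at the same base in both lists (chr6:56610492-56614702 in NC, 401 bp of exon, and chr6:56610492-56614652 in MA, 351 bp). Most genes had a single stop codon peak, 706 of 743 in NC and 632 of 660 in MA. ERC1, an active zone and Golgi scaffold, had 3 in the NC list, and DIDO1, a chromatin-associated factor, had 3 in the MA list. DIDO1 makes isoforms that end at different stop codons, and its 3 peaks lay apart at chr20:62879039-62879987, chr20:62882130-62887229 and chr20:62896797-62905055.

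Most stop codon peaks were matched by a peak in the other list. A partner was any same-strand peak of the other list that overlapped by at least 1 bp over the span from start to end. In the NC list 79.5% (76.5 to 82.3%) had one, against 73.8% of all NC peaks, and in the MA list 82.9% (79.8 to 85.6%), against 79.7% of all MA peaks. Both intervals lie above the share of all peaks, the MA one only just. Of the 3′ UTR peaks, 75.3% in NC and 82.3% in MA had a partner, so in MA their share was close to that of stop codon peaks. Stop codon peaks are longer than the others, however, and longer peaks had a partner more often in both. At matched length the shares were close, and each interval of a stop codon share held the share of the other peaks. Under 250 bp, 90 of 195 NC stop codon peaks had a partner (46.2%, 39.0 to 53.4%), against 51.2% of the other peaks, and 101 of 178 MA ones (56.7%) against 59.4%. From 250 to under 500 bp the shares were 82.8% against 82.7% in NC and 84.5% against 86.3% in MA. At 500 bp or more they were 98.6% against 98.4% and 98.5% against 98.4%. Single-exon stop codon peaks, for which span and exonic length are the same, had a partner in 75.7% of NC peaks and 83.0% of MA peaks, against 72% and 79% of all single-exon peaks.

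Of the NC stop codon peaks, 438 (56.1%, 52.5 to 59.6%) overlapped a stop codon peak of the MA list, 183 (23.4%) overlapped peaks of other annotations only, and 160 (20.5%, 17.7 to 23.5%) had no partner. In the MA list the numbers were 435 (63.1%, 59.4 to 66.7%), 136 (19.7%) and 118 (17.1%, 14.4 to 20.2%). Peaks without a partner were short and weak. Their median exonic length was 200 bp in both lists and their median fold 3.00, against 485.5 bp and 4.33 for NC peaks with a stop codon partner and 493 bp and 3.69 for MA ones. Their genes had a median input level of 8.05 FPKM in NC and 6.91 in MA for the NC peaks, and of 3.62 in NC and 6.71 in MA for the MA peaks. So the genes of unmatched MA peaks were lower in the NC input than in the MA input.

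**Figure D3:**
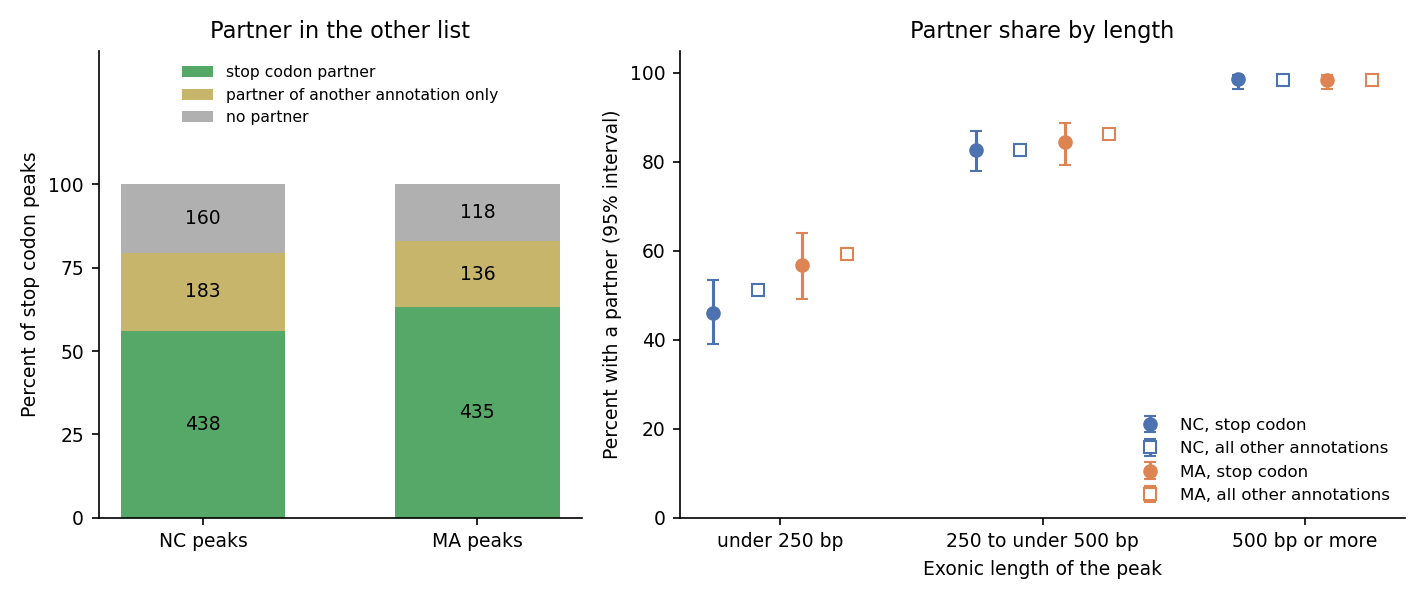
The left plot shows the percent of NC and MA stop codon peaks with a stop codon partner in the other list, with a partner of another annotation only, and with no partner, with the number of peaks in each segment. The right plot shows the percent of peaks with a partner by exonic length for stop codon peaks (filled) and all other peaks (open), with exact 95% intervals. The share climbs from 46.2% (NC) and 56.7% (MA) under 250 bp to 98.6% and 98.5% at 500 bp or more, with stop codon peaks and other peaks close together at each length.

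Where both lists called a stop codon peak, the called intervals were nearly the same. There were 445 overlapping pairs, 439 of them with the same gene, and 57 (12.8%) had both edges identical. Another 216 shared 1 edge, and the median shift of an edge was 50 bp, a single step of the grid. In 351 pairs (78.9%) the overlap covered at least 50% of both peaks. Neither list had consistently longer peaks. The MA peak was the longer one in 192 pairs and the NC peak in 179, and 74 pairs had equal exonic lengths. TRIM63, a ubiquitin ligase, shows a case with 1 shared edge and the NC peak longer (chr1:26051699-26053641 in NC, 299 bp of exon, and chr1:26051848-26053641 in MA, 150 bp).

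A stop codon label in 1 list often met a 3′ UTR label in the other. Of the 183 NC peaks with a partner of another annotation only, 149 overlapped a 3′ UTR peak, 34 an internal exon peak, 12 a 5′ UTR peak and 6 a start codon peak, and a peak can overlap several. Of the 136 such MA peaks, 101 met a 3′ UTR peak, 36 an internal exon peak, 10 a 5′ UTR peak and 2 a start codon peak. Among pairs in which both peaks lay in 1 exon, the 3′ UTR partner of an NC stop codon peak began further downstream in 47 of 94, at the same base in 20 and further upstream in 27. For MA stop codon peaks the numbers were 23, 10 and 12 of 45. The 3′ ends were more one-sided. The 3′ UTR partner ended further upstream than the stop codon peak in 84 of the 94 NC pairs and in 35 of the 45 MA pairs, with a median shift of -50 bp in each, a single grid step. The labels thus also differed in pairs whose 3′ UTR partner reached at least as far upstream as the stop codon peak did.

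Several genes had a strong stop codon peak in 1 list and no overlapping peak in the other. Among genes whose inputs both reached 5 FPKM, the NC peak of that kind with the highest fold was in SLC25A11, the mitochondrial oxoglutarate carrier (chr17:4937279-4937477, fold 12). It was the gene's only NC peak, and the MA list had none in the gene. SLC25A11 was at 38.7 FPKM in NC and 25.5 in MA. HPS4, a subunit of a complex needed for melanosomes and other lysosome-related organelles, had a fold of 10 (chr22:26451138-26451486, false discovery rate 0.0288). LYST, a regulator of lysosome size that is mutated in a pigment dilution syndrome, had 8 (chr1:235738307-235738762). UBAP2L, a stress granule protein, had 7.5, and NIPAL3, a predicted magnesium transporter, had 7. The UBAP2L peak had a false discovery rate of 0.0617 and was 1 of 6 NC stop codon peaks above 0.05, against 2 in the MA list. HPS4, LYST, UBAP2L and NIPAL3 had 5, 8, 2 and 2 other peaks in the MA list. For HPS4 and LYST 1 of these was a stop codon peak at another place (chr22:26452979-26453577 and chr1:235759080-235762799).

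Among the MA peaks without a partner, the one with the highest fold was in TRAPPC10, a vesicle tethering subunit (chr21:44098464-44098613, 150 bp, fold 9). It was followed by FBXO21, a ubiquitin ligase subunit (chr12:117143635-117143834), with 7. FAM120A, an RNA-binding protein, SLC29A4, a monoamine transporter, and REV1, a translesion DNA polymerase, had 5 each. REV1 was also higher in the MA input, at 12.6 FPKM against 5.60 in NC, whereas TRAPPC10 (6.35 against 6.17) and FBXO21 (5.22 against 5.52) were at nearly equal levels. The TRAPPC10 and FBXO21 peaks were short, at 150 and 200 bp, and under 250 bp only 101 of 178 MA stop codon peaks had a partner. Why these peaks were called in the MA list alone was not tested.

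Genes with a stop codon peak in both lists numbered 426, with 317 in the NC list only and 234 in the MA list only. Of these, 401, 293 and 218 reached 1 FPKM in an input, and 20 of the 977 genes were not in the gene table. Genes with the peak in the MA list only were, by their median, higher in the MA input (0.38, from a median of 5.85 FPKM in NC to 7.97 in MA). Genes with the peak in the NC list only had a median difference of -0.11 (10.2 to 8.60 FPKM), and those in both lists one of 0.07 (8.69 to 9.86 FPKM), which became -0.039 when the median of all tested genes was set to 0. Differences above 0 were held by 154 of the MA-only genes (70.6%), 122 of the NC-only genes (41.6%) and 219 of the genes in both lists (54.6%), against 56.7% of all tested genes. A difference of 2-fold or more upward was counted in 41 MA-only genes (18.8%), 9 NC-only genes (3.07%) and 43 genes in both lists (10.7%), against 10.3% of all tested genes. Downward it was counted in 5, 14 and 17 genes (2.29%, 4.78% and 4.24%), against 2.98%. Over all 912 tested genes with a stop codon peak, 93 were higher (10.2%) and 36 lower (3.95%), shares near those of all genes. These counts depend on the scale, and 11 MA-only genes were higher with a pseudocount of 5 and 70 after rescaling to TPM, against 2.58% and 17% of all tested genes.

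The genes of 1 list only were divided by what the other list held. For genes whose NC stop codon peak was overlapped by an MA peak of another label, the median input difference was -0.11 (168 tested genes). It was -0.04 where the gene had only MA peaks elsewhere (88) and -0.26 where it had no MA peak at all (37). For MA-only genes the corresponding medians were 0.23 (120 genes), 0.44 (75) and 0.68 (23), so the genes with no NC peak at all had the highest one. The same direction held for genes chosen by 3′ UTR peaks, at 0.38 for MA only and 0.03 for NC only, by 5′ UTR peaks (0.36 and 0.06) and by start codon peaks (0.41 and 0.04). For internal exon peaks it did not, at 0.17 and 0.21. The part that transcript level has in whether a stop codon peak was called was not tested.

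**Figure D4:**
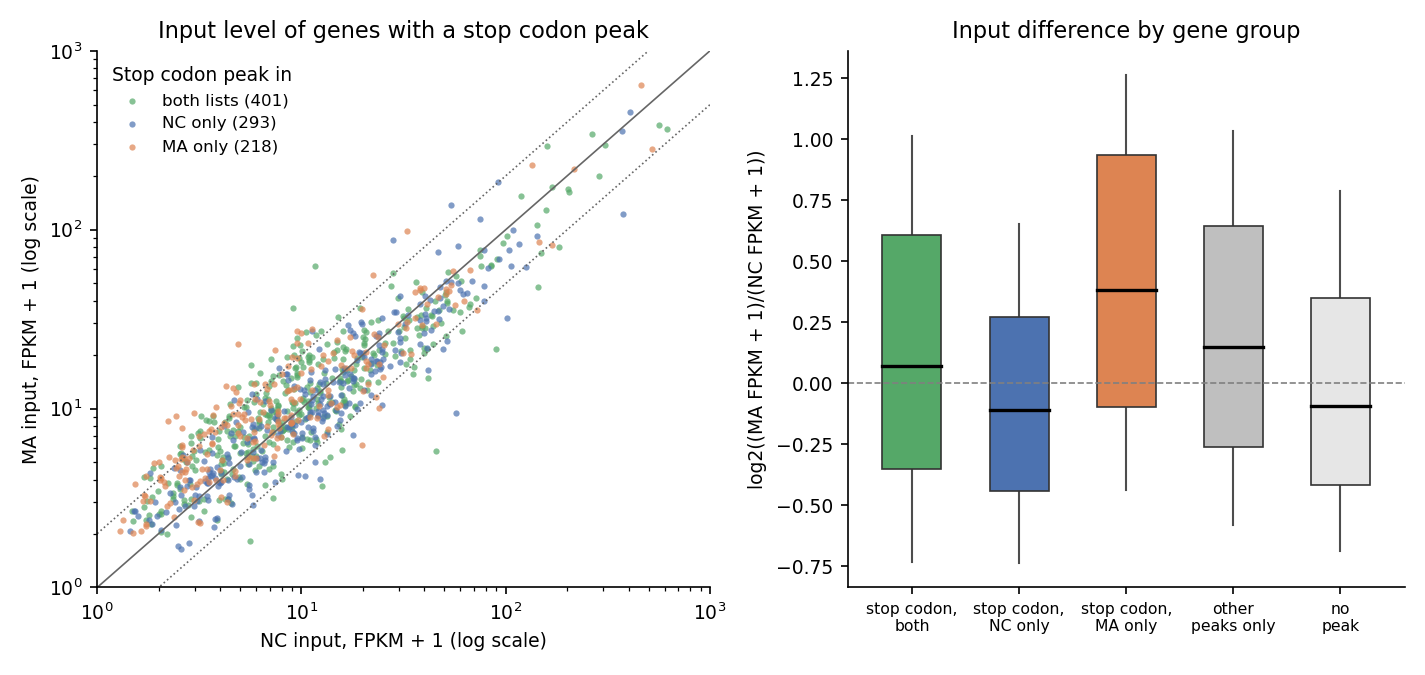
The left plot shows the MA against the NC input level (FPKM + 1, both axes logarithmic) of 912 genes with a stop codon peak, by the list that held it, with a line of equality and dotted lines at a ratio of 2. The right plot shows the input difference, log2((MA FPKM + 1)/(NC FPKM + 1)), by gene group, with quartile boxes, a line at the median and whiskers from the 10th to the 90th percentile. Genes with the peak in MA only lie highest (median 0.38), genes with it in NC only lie lower (-0.11), and the boxes overlap.

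The genes with the lowest input differences among the 697 stop codon genes at 5 FPKM or more were PRDM7, MBP and MLPH. MLPH, melanophilin, which links melanosomes to the myosin motor, was at 88.9 FPKM in NC and 20.4 in MA, a difference of -2.07. It had a stop codon peak in both lists at different places, chr2:237553673-237554173 in NC and chr2:237545577-237549223 in MA. MLANA, the melanosome protein melan-A, was at 375 and 122 FPKM (-1.62). It is the only one of the 10 lowest genes on the melanocyte list, of which 8 of 14 tested members were lower by 2-fold or more and the median difference was -1.24, with or without a stop codon peak. The NC stop codon peak of MLANA (chr9:5910210-5910606, fold 3.90) had no partner. The NC list held 2 MLANA peaks and the MA list none. TBC1D16, a Rab GTPase-activating protein known from melanoma, was at 101 and 31.0 FPKM (-1.67).

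The lowest difference of all was that of PRDM7, a histone methyltransferase, at 44.3 FPKM in NC and 4.79 in MA (-2.97). PRDM9 is nearly identical to it in sequence, so the reads and peaks assigned to PRDM7 are uncertain. One stop codon peak had the same edges in both lists (chr16:90057908-90058505, 598 bp). A further NC stop codon peak of the gene (chr16:90062037-90063701, 348 bp of exon) met only a 5′ UTR peak in MA. MBP, myelin basic protein, was at 56.1 and 8.40 FPKM (-2.60) and had 2 NC stop codon peaks and none in MA. The longer of the 2, with 1795 bp of exon, overlapped MA peaks annotated to the 3′ UTR, and the other had no partner. SAMHD1, which degrades dNTPs, DENND2D, KCNAB2 and TRIM63 had differences from -1.66 to -1.49. KCNAB2, at 143 and 46.8 FPKM, kept 2 stop codon peaks in each list, 1 pair with identical edges (chr1:6100988-6101186). Of the 10 genes with the lowest differences, 5 had a stop codon peak in both lists, 4 in NC only and 1, SAMHD1, in MA only. The stop codon peaks of TBC1D16, DENND2D and SAMHD1 also overlapped 3′ UTR peaks of the other list. Over all 977 genes with a stop codon peak, 426 had it in both lists, 317 in NC only and 234 in MA only. The part of transcript level in these outcomes was not tested.

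At the other end RCAN1, an inhibitor of calcineurin, was at 10.7 FPKM in NC and 61.9 in MA (2.43). Its stop codon peak was in both lists with 1 shared edge (chr21:34517733-34519021 in NC and chr21:34517733-34519418 in MA). NR1D2, a clock repressor, was at 3.90 and 22.0 FPKM (2.23), and SLC7A11, the cystine transporter, at 8.11 and 35.7 (2.01). STIL, needed for centriole assembly (4.66 and 16.6 FPKM, 1.64), had the peak in both lists, with a fold of 13.3 in NC, and so did SLC7A11. TOP2A, topoisomerase II alpha of dividing cells, was at 31.7 and 96.8 FPKM (1.58), and its MA stop codon peak met a 3′ UTR peak in NC. Of these 10 genes, 6 had the peak in MA only (NR1D2, ZMYM5, CEP70, SENP7, CTDSPL2 and TOP2A), 3 in both and 1, TMEM97, a sterol-regulated receptor, in NC only. The ZMYM5 peak overlapped an NC peak of an internal exon, and those of NR1D2, CEP70, SENP7 and CTDSPL2 had no partner. SENP7, a SUMO protease at 1.99 and 8.47 FPKM, had no NC peak of any kind and 5 MA peaks.

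The share of genes with a stop codon peak depended on the expression level. By the mean of both inputs, 0.854% of genes under 1 FPKM had one in NC and 0.805% in MA. The share was highest at 10 to 20 FPKM in NC (7.88%) and at 5 to 10 FPKM in MA (7.84%), and it was 3.41% in both lists at 100 FPKM or more, where the MA share had been 3.09% at 50 to 100 FPKM. Peaks of any annotation followed the same course, from 18.6% (NC) and 16.3% (MA) under 1 FPKM to 89.4% and 87.5% at 5 to 10 FPKM and 58.9% and 51.6% at 100 FPKM or more. Of all tested genes, 83.3% had some peak in NC and 80% in MA. The median fold of the stop codon peaks was likewise lower in genes at 50 to 100 FPKM (3.00 in NC, 2.38 in MA) than at 1 to 5 FPKM (4.78 and 3.85). At 100 FPKM or more it was 2.86 in NC and 3.00 in MA.

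**Figure D5:**
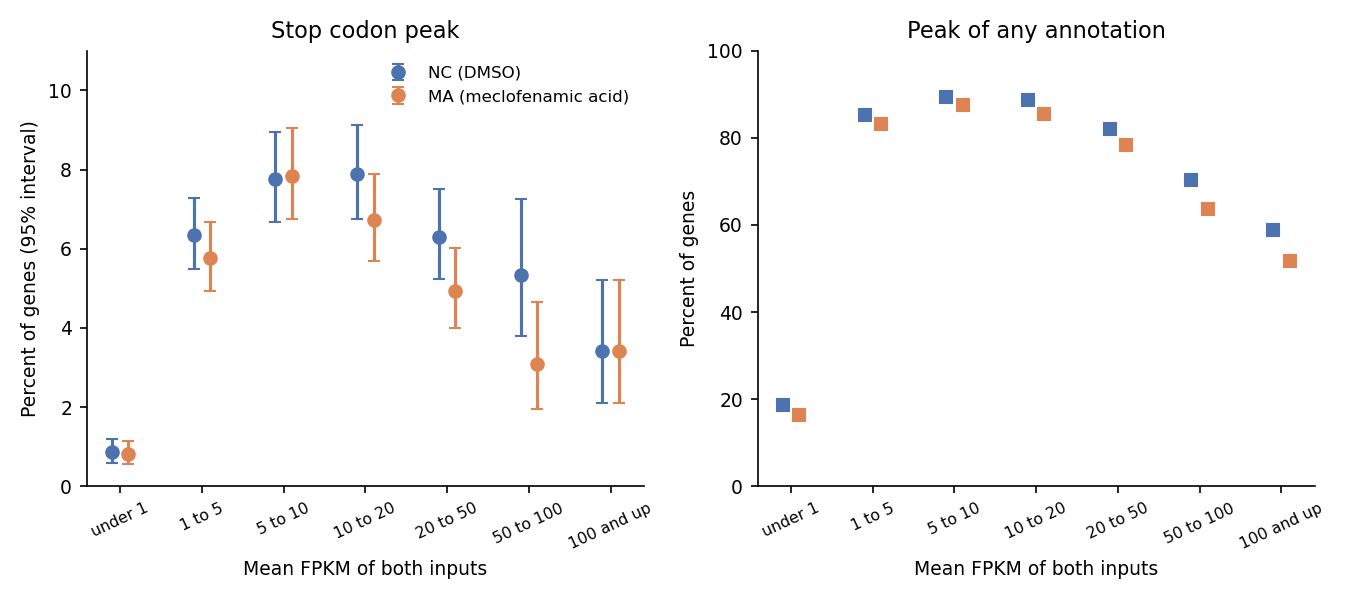
The left plot shows the percent of genes with a stop codon peak in the NC and the MA list by the gene's mean FPKM of both inputs, with exact 95% intervals, and the right plot the percent with a peak of any annotation. The stop codon share is highest at 10 to 20 FPKM in NC (7.88%) and at 5 to 10 FPKM in MA (7.84%), and is 3.41% in both at 100 FPKM or more.

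Among 17 lists of 285 genes drawn up for m6A, mRNA decay, the melanocyte lineage and drug responses, 242 genes had a peak of some kind, and 25 of them (10.3%, 6.80 to 14.9%) had a stop codon peak, against 977 of all 10101 genes with a peak (9.67%, 9.10 to 10.3%). Of the m6A machinery, 2 of 9 writer genes had one, both in MA only. VIRMA, the scaffold of the writer complex that directs methylation toward stop codons and 3′ UTRs, had an MA stop codon peak with a fold of 5.83 that overlapped NC peaks of a 3′ UTR and an internal exon, and it was at 8.54 FPKM in NC and 26.0 in MA. ZC3H13, a partner of VIRMA, had one with a fold of 4.91 that met a 3′ UTR peak in NC. Neither eraser, FTO nor ALKBH5, had a stop codon peak, though both had other peaks. Of 11 reader genes with a peak, IGF2BP3 had one, in NC only, and its MA partner was annotated to the 3′ UTR.

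Among 17 genes of translation termination and nonsense-mediated decay with a peak, 2 had a stop codon peak, each in both lists. That of UPF3A, a regulator of nonsense-mediated decay, had identical edges in both (chr13:114291602-114295458, 299 bp of exon, fold 5.33 in NC and 5.50 in MA). Of 19 deadenylation and decay genes with a peak, 3 had one and again in both lists, namely CNOT2, PAN3, a subunit of the other cytoplasmic deadenylase, and XRN1, the 5′ to 3′ exonuclease. XRN1 was at 1.87 FPKM in NC and 5.39 in MA. None of 17 genes of 3′ end processing with a peak had a stop codon peak.

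Of the lineage and driver lists, PAX3, a transcription factor of the neural crest, had a stop codon peak in both lists (chr2:222201079-222220142 in NC and chr2:222200979-222220291 in MA), with a fold of 5.40 in NC and 10 in MA, each on its own list's scale. MLANA was the other of 13 melanocyte genes with a peak. SF3B1, a splicing factor mutated in some uveal melanomas, had a stop codon peak in both lists, and SATB1 had one in MA only. Histone lysine modifiers held 4 of 18, SETD5 and ASH1L in both lists and SETD2 and KAT6A in MA only. The SETD2 and KAT6A peaks each overlapped an NC peak annotated to an internal exon of the same gene. ATF4, the effector of the integrated stress response, had one in both lists at almost equal input levels (305 and 296 FPKM). FDPS of sterol synthesis and SLC7A11 had one in both lists, and SESN2, OSGIN1, AMOTL1, FOSL2 and ATG7 in NC only. The OSGIN1 peak overlapped MA peaks of an internal exon and a 3′ UTR, and the AMOTL1 peak an MA 3′ UTR peak. Those of SESN2, FOSL2 and ATG7 had no partner. ATG7, an autophagy enzyme named among reported FTO targets, was at 4.81 FPKM in NC and 7.24 in MA, with 2 NC peaks and no MA peak.

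A few stop codon peaks could not be tied to a single gene. In the NC list 22 (2.82%) and in the MA list 24 (3.48%) overlapped a peak of the same list that was assigned to another gene on the same strand, as at overlapping or read-through genes, and their genes are uncertain. By chromosome, the share of peaks annotated to a stop codon in the NC list ran from 1.49% on X to 5.26% on 22, and in the MA list from 2.29% on 5 to 6.04% on 13.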

How the data were processed

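The values come from m6A RIP sequencing of OMM 2.3 cells, with 1 input and 1 RIP library each for NC and MA. Named in the submitters' processing notes are ChIPseeker, deepTools, HISAT, HISAT2 and Trimmomatic, with no version, and GRCh38.p13 as the build. For the peak caller, its thresholds and the transcripts used in annotation, no name is given in the sources used here. Input levels are the FPKM values the authors deposited. The fold enrichment of each peak, its p-value and its false discovery rate are the authors' deposited values, per the file headers, and so is its exonic length. Every stop codon peak had a fold of at least 1.5. The members and the gene lists were chosen with earlier results of these data known.

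Repeated entries of a peak were counted as 1 peak, 132 fewer for NC and 99 fewer for MA, with none of them a stop codon peak. The deposited start counts from 0 and is printed with 1 added. Peaks of both lists were matched by same-strand overlap of at least 1 bp from start to end, introns included. Genes were joined to the FPKM table by the deposited gene symbol, and 727 of the 743 NC genes and 645 of the 660 MA genes were found there. Of these, 694 and 619 had an input level of 1 FPKM or above and entered the input comparison. A pseudocount of 1 was used. The input totals were recovered from the FPKM values, since each gene's NC to MA ratio must be that of 2 whole read numbers once the totals' own ratio (NC over MA, 0.890) is taken out. A gene was matched to the smallest whole numbers whose ratio lay within 1.5 times the rounding error of the printed values. It counted as whole where both numbers were under 100000 and their product times the relative rounding error was under 0.05, so that no other small pair would do by chance of rounding. That held for 95.6% of the 13055 genes with a value above 0 in each input. With the totals kept, 123 genes had exactly their RefSeq length, and 30 had with the second-best totals. The matching and the recovery were tested on simulated data. Intervals are exact Clopper-Pearson 95% intervals, which treat reads and peaks as independent. Computations used Python 3.11.15, pandas 2.3.3, numpy 2.4.6 and scipy 1.17.1.

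The text names, for each list, the 5 peaks of highest fold that had a partner and the 5 that had none, where both inputs of the gene reached 5 FPKM. It names the 10 highest and the 10 lowest input differences among stop codon genes with an input level of 5 FPKM or above, none on chromosome Y. Members of the gene lists with a stop codon peak are named as well. A few genes that these rules pick are not reported here. SNX29, CCDC186, CHCHD3, SGCD, DST, ERC1 and DIDO1 were named after their values were seen. The alternatives were other thresholds of fold, overlap, gene level and pseudocount, other partner rules, other scalings of the inputs, single-exon peaks, and lists of equal length.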

Additional observations from a re-analysis of the deposited data

How the results depend on the processing

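Of 108 recomputed values of 35 results, 68 stayed within the margin (the 95% interval of a share, 0.1 for a log2 median, 10% of a length or fold, 1.5 times a count), 39 moved beyond it and 1 changed sign. The median input difference of genes with the peak in both lists was -0.039 once the median of all genes was set to 0, which lowers every difference by 0.11. That rescaling gave -0.22 for NC only and 0.27 for MA only. Genes at 5 FPKM or more in an input gave -0.22 for NC only. For MA only the median was 0.51 with a pseudocount of 0.1, 0.22 with 5 and 0.56 after rescaling to TPM, which moves the median of all genes to 0.20. Under each of the 6 alternatives the median was highest for MA only and lowest for NC only. Counts at 2-fold or more depended on the scale. The tested genes numbered 401 in both lists, 293 in NC only and 218 in MA only. With a pseudocount of 5, 7, 3 and 11 of them were higher, in that order, against 2.58% of all tested genes. Lower were 8, 7 and 1, against 1.46%. With 0.1, 21 NC-only and 71 MA-only genes were higher, against 17% of all tested genes. After rescaling to TPM, 21 NC-only and 70 MA-only genes were higher, with 17% of all tested genes higher in place of 10.3%. Lower were 2 MA-only genes, against 2.98% of all tested genes.

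The stop codon share of peaks was 4.40% (NC) and 4.47% (MA) at a fold of 4 or more, 4.02% and 3.89% in lists of the 15000 peaks with the highest folds, and 4.04% and 3.78% where both inputs reached 5 FPKM. The share with a partner was 58.3% (NC) and 59.4% (MA) at an overlap of 50% of both peaks, 56.1% and 63.1% for stop codon partners only, 82.9% and 88.7% where both inputs reached 5 FPKM, and 93.6% and 95.6% for any peak in the same gene. It was 75.7% for single-exon NC peaks and 76.2% for MA peaks in lists of equal number. Median lengths were 349 and 351 bp for single-exon peaks, and 449 bp in MA where both inputs reached 5 FPKM. At a fold of 2 or more, 70.2% of the MA genes had another peak. By the NC input alone, 1.26% (NC) and 1.19% (MA) of genes under 1 FPKM had a stop codon peak. The cause of these moves was not tested, apart from the scalings and subsets that make them.

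Overlap of exonic blocks and the m6A sequence motif were not run, since exon blocks and a genome of this build were not used here, and with 1 library per group none was left out. No paired analysis was possible because each condition had 1 input and 1 RIP library. Peaks in low genes rest on few reads, and an absent peak is one that was not called at this depth.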

Other observations

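Genes of the centriole stood out among the deposited Gene Ontology terms, a choice made after the values were seen and with no test. Centriole had the highest share of the 563 terms compared below. Of 113 centriole genes with a peak, 23 had a stop codon peak (20.4%, exact interval 13.4 to 29.0%), and of 409 centrosome genes 59 did (14.4%, 11.2 to 18.2%), against 9.67% of all genes with a peak. Over 563 terms with at least 40 such genes, the median share was 9.09%, with 5% of terms below 3.34% and 5% above 15.2%. Among the 23 were POC5, CEP152, CENPJ and STIL, which build or extend centrioles, NIN, which anchors microtubules, and CEP290 of the ciliary base. The stop codon peak was in both lists in 13 of them, in MA only in 7 and in NC only in 3. In the inputs 22 of the 23 were higher in MA and 1, RILPL1, was lower, with a median difference of 0.51, and 6 were higher by 2-fold or more. Of all tested genes 56.7% were above 0 and 10.3% higher by 2-fold, with a median of 0.11. Centriole genes with peaks of other annotations only showed the same side, with 62 of 85 higher, 29 (34.1%) by 2-fold or more and a median of 0.76.

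Of the transcription factors with a peak, 47 of 518 had a stop codon peak (9.07%), and of the C2H2 zinc finger family 7 of 117 (5.98%).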
